A study of Drosophila melanogaster with 4 samples.

Results

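Binding of the TATA-binding protein (TBP) was described at 3 loci of chromosome arm 2L of Drosophila melanogaster that carry the pair-rule genes odd-skipped (odd), sloppy paired 1 and 2 (slp1, slp2) and paired (prd), together with sister of odd and bowl (sob) and drumstick (drm), the neighbouring relatives of odd. A peak was taken as a member when at least 1 bp of it fell in one of 3 windows on FlyBase release 5. These windows ran from 3540000 to 3615000 for drm, sob and odd, from 3820000 to 3845000 for slp1 and slp2, and from 12075000 to 12095000 for prd. They held 11 of the 1349 peaks on 2L and of the 7769 peaks in the whole list. By locus the counts were 3 for drm, sob and odd, 5 for slp1 and slp2, and 3 for prd.

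The series comprised 2 libraries of DNA immunoprecipitated with a crude rabbit polyclonal serum against Drosophila TBP and 2 libraries of input DNA. All 4 came from embryos labelled as 0 to 8 h old, of strain Exd-GFP-13T and genotype w; PBac{y[+]-attP-3B}VK00033. By these labels the input and the immunoprecipitated samples had the same strain and genotype. The strain carries a transgene of the genomic region of exd (extradenticle, a homeodomain gene) in which GFP takes the place of the stop codon. The extraction text of the same samples instead describes an 8 to 16 h collection from y; bw cn sp flies, and which of these descriptions holds is not known.

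A single list of peaks for the whole series was analysed. Each peak had a start, an end and a score given by the authors without a scale. Scores were used to order peaks within this list, with a higher score taken as a stronger call, and to find peaks of similar score by their difference, on a scale that is not known. Read depths are unknown and the list has no value per library, so no peak has a replicate error and no test between samples could be made. All comparisons below are descriptions of this list. Whole embryos were used, so a site bound in few cells and a site bound weakly in many cells cannot be told apart.

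TBP is the subunit of the general factor TFIID that contacts the TATA box, and it takes part in assembling RNA polymerase II at promoters. Pair-rule genes are switched on in the early fly embryo in stripes at double-segment intervals, and they encode transcription factors that set up the later segment boundaries. The Odd protein is a zinc-finger repressor, Slp1 and Slp2 are closely related forkhead-domain factors, and Prd carries a paired domain and a homeodomain. Drm and Sob belong to the same zinc-finger family as Odd, and Drm is known for patterning of the embryonic gut. Neither drm nor sob is a classical pair-rule gene. The pair-rule genes outside these windows were not analysed here.

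The gene table used here belongs to release 6 of the genome, so it served for names and order only. All 6 genes were found in it on 2L. Their order along the arm was drm, sob, odd, slp1, slp2 and prd, which is also the order of the windows. One other protein-coding gene, CG43815, lay between drm and sob, and none lay between sob and odd or between slp1 and slp2. The protein-coding neighbours of prd were CG14947 and Pex19. Release 5 gene positions were not used here, so the link of a window to its genes rests on the window bounds, and no peak was assigned to a promoter, an intron or an enhancer.

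**Figure D1:**
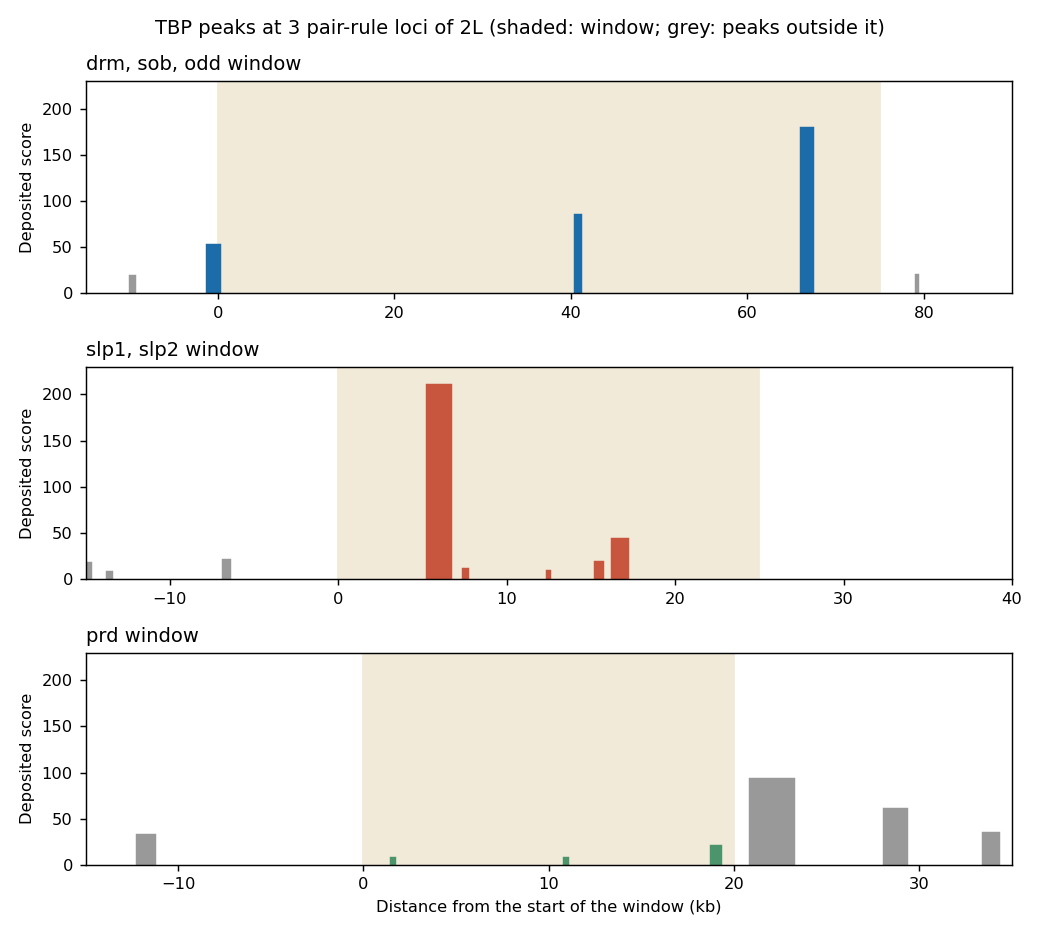
Deposited score of each TBP peak (bar height) against distance from the start of its window in kb, for the drm, sob, odd window (top), the slp1, slp2 window (middle) and the prd window (bottom). Shading marks the window, coloured bars are the 11 member peaks drawn at their true width, and grey bars are peaks outside the window; scores reach 180.28 in the top panel and 211.52 in the middle one, whereas the prd window stays at or below 21.16 with a taller grey peak just past its right edge.

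The 3 loci differed in how TBP was laid out over them. The drm, sob and odd window carried few, widely separated peaks that were all above the 2L median in score. The slp1 and slp2 window carried 1 very strong peak, 1 of moderate score and 3 weak ones within a short stretch. The prd window carried weak peaks only. The map of scores along the windows shows these layouts.

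The window of odd, a repressor of other segmentation genes, and its relatives drm and sob held the second strongest peak of the 11. That peak lay at 3605940 to 3607403, the farthest along of the 3, scored 180.28 and was 1464 bp wide. It ranked 34 of 1349 in score on 2L, so 97.5% of the arm's peaks scored lower, and 259 in width. In score order it stood between the peak at 21526219 to 21530422 (180.62, 4204 bp) and the peak at 18830149 to 18831608 (176.49, 1460 bp). The neighbour above it was much wider, while the neighbour below had almost the same width.

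The middle peak of the drm, sob and odd window lay at 3580406 to 3581184. It scored 86.15, which placed it 163 on the arm, but it was only 779 bp wide, which placed it 643. Among the 50 peaks of 2L nearest to it in score, with scores of 80.78 to 90.42, the median width was 1536.5 bp and 1 peak was narrower. This was the sharpest member relative to its score.

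The first peak of that window, at 3538618 to 3540231, showed the opposite shape. It scored 53.23 (rank 371, a score shared by 6 peaks) and was 1614 bp wide (rank 224), the widest of all 11 members. Of the 50 peaks nearest in score, 38 were narrower, and their median width was 1238 bp. Only 232 bp of this peak fell inside the window, so its membership rests on the overlap rule. Across the 3 peaks of the window, score did not follow width: the widest was the weakest and the narrowest was second in score.

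The slp1 and slp2 window held the strongest of the 11 peaks. It lay at 3825184 to 3826681, scored 211.52 and measured 1498 bp. In score it ranked 16 of 1349 on 2L, with 98.8% of the arm's peaks lower, and in width it ranked 253. The peaks next to it in score order, at 21496352 to 21501125 (212.03, 4774 bp) and at 21506444 to 21511225 (209.43, 4782 bp), were both much wider. Both belong to a run of 23 wide peaks on 2L, with scores of 167.51 to 238.1 and widths of 3404 to 5361 bp. The peak at 21526219 to 21530422, next above the strongest peak of the drm, sob and odd window, belongs to it too. The run fills many of the top ranks of the arm. With that run left out, the strongest slp peak ranked 8 and the strongest peak of the drm, sob and odd window ranked 12 of 1326.

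That run also bears on how narrow these tall peaks look. Beside the 50 peaks nearest in score, the median width was 3129 bp for the strongest slp peak and 2824.5 bp for the strongest peak of the drm, sob and odd window, and 12 and 11 of the 50 were narrower. Without the run the median was 1640 bp for both, and 22 and 20 of the 50 were narrower. Their widths were then close to that median, but these 50 peaks were not a close match in score. They spanned 123.31 to 290.39 for the slp peak and 122.31 to 230.14 for the other. As the 2 peaks ranked 8 and 12 of 1326, most of the 50 scored lower, and width rises with score on 2L. Whether their widths are ordinary for their scores is therefore not settled. For the sharp middle peak of the drm, sob and odd window the values were the same with and without the run.

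The second strongest peak of the slp window lay near its other end, at 3836171 to 3837217. It scored 44.34 and measured 1047 bp, ranks 462 and 474, both above the medians of the arm (28.43 and 732 bp). Slp1 and Slp2 have largely overlapping functions in segmentation. The 2 main peaks of their window were far apart in score. Which of the genes lies nearer to which peak was not determined, since gene positions on release 5 were not used.

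Each of the main slp peaks had a weak peak close by. The peak at 3827349 to 3827706 (score 12.37, 358 bp) followed the strongest one after 667 bp. The peak at 3835182 to 3835690 (19.72, 509 bp) came 480 bp before the second strongest. The remaining peak of the window, at 3832349 to 3832598, lay between these pairs and was the weakest, at a score of 9.63 over 250 bp. These 3 weak peaks ranked 864 to 1244 in score and 896 to 1248 in width, all below the medians of 2L.

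The prd window was weak throughout. Its peaks lay at 12076439 to 12076676 (score 8.19, 238 bp), at 12085756 to 12086022 (8.86, 267 bp) and at 12093720 to 12094294 (21.16, 575 bp). In score they ranked 1308, 1273 and 828 of 1349, and in width 1270, 1224 and 828. The first 2 scored higher than only 3.04% and 4.82% of the arm's peaks. All 3 were below the 2L median score of 28.43, and all were near the median width of the 50 peaks closest in score (247, 256.5 and 607.5 bp).

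A strong peak stood just past the edge of the prd window. It lay at 12095784 to 12098240, began 783 bp beyond the window, scored 93.57 (rank 135) and measured 2457 bp (rank 89). The next, at 12103038 to 12104342, scored 61.16. On the other side the nearest peak outside the window, at 12062707 to 12063722, scored 33.9. The nearest peak outside the window thus scored higher than every peak inside it, on both sides. Around drm, sob and odd the nearest outside peaks scored 19.39 and 21.16, below all 3 peaks of that window. The next peak out on the side before it, at 3514201 to 3515356, scored 64.44, above the lowest score inside it (53.23). Around slp1 and slp2 the nearest outside peaks scored 21.88 and 15.08, below the 2 main peaks of that window.

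**Figure D2:**
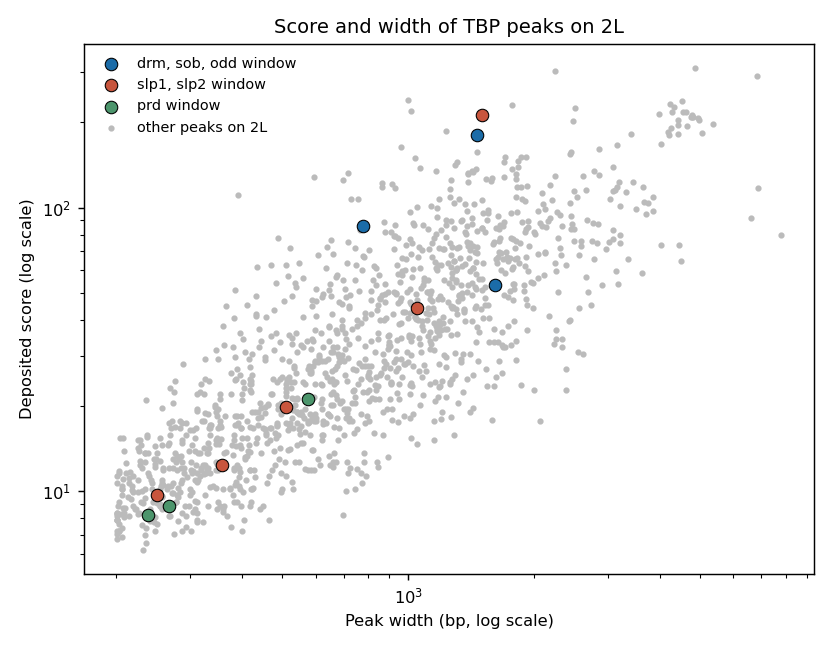
Deposited score against width in bp for every TBP peak on 2L, both on log scales, with the 11 member peaks coloured by window and the other 1338 peaks in grey. The 3 prd peaks and 3 of the 5 slp peaks lie in the lower left, the strongest slp peak (211.52) and the strongest of the drm, sob and odd window (180.28) lie near the top at 1498 and 1464 bp, and the 779 bp peak of the drm, sob and odd window sits at the narrow edge of the cloud for its score.

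Over all 11 members, the median score and the median width lay below those of the other peaks of the arm, while peaks were denser over the windows as a whole, though not around drm, sob and odd. The median score was 21.16 for the members and 28.43 for the other 1338 peaks of 2L. The median width was 575 bp for the members and 733 bp for the others. With peaks within 1 kb merged, the medians of the members were 44.34 in score and 779 bp in width. Both exceed the unmerged medians of the other peaks. No median over merged peaks of the arm was computed, so the order after merging is not known. The 3 windows together held 9.17 peaks per 100 kb, against 5.86 per 100 kb on the rest of 2L. Along 2L, score and width rose together (Spearman's rho = 0.825 across 1349 peaks, which are not independent). The plot of score against width shows most members inside the main cloud of the arm.

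Of the 11 members, 2 reached the 90th percentile of score on 2L (93.16), against 10.0% of all peaks on the arm. Both were the leading peaks of their windows. A width of at least 1000 bp was reached by 4 members, 2 in the drm, sob and odd window and 2 in the slp window, against 37.6% of peaks on 2L. A score above the 2L median was found in 5 members, with none in the prd window, against 49.6% on the arm. Scores below 10 were found in 3 members, 2 of them in the prd window, against 8.67% on the arm. With 11 members these shares are coarse, and no test of them was made.

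The windows differ in length, so each was set beside tiles of its own length laid end to end along 2L. The tiles also cover the windows, so the counts below include tiles with the window's own peaks. A peak that crosses a tile edge counts in each tile it overlaps. For drm, sob and odd, 60.3% of 305 tiles of 75 kb held at least 3 peaks, and 4.59% (14 tiles) held a peak scoring at least 180.28. The number of peaks there was thus ordinary for the arm, while few tiles had as strong a peak. For slp1 and slp2, 8.94% of 917 tiles of 25 kb held at least 5 peaks and 1.31% (12 tiles) held a peak of at least 211.52. Both the number of peaks and the height of the tallest lay in the upper part of the arm there. The number depends on how close peaks are split: with peaks within 1 kb merged, the slp window held 3 regions. Tiles were not counted again on merged peaks.

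For prd, 18.4% of 1147 tiles of 20 kb held at least 3 peaks, whereas 43.1% held a peak of at least 21.16. Since 48.5% of the 20 kb tiles held no peak at all, most tiles with any peak had one at least as strong as the strongest of the prd window. Among tiles of that length with a peak, the median of the highest score was 54.16. The prd window thus held more peaks than most tiles of its length, all of them with low scores.

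**Figure D3:**
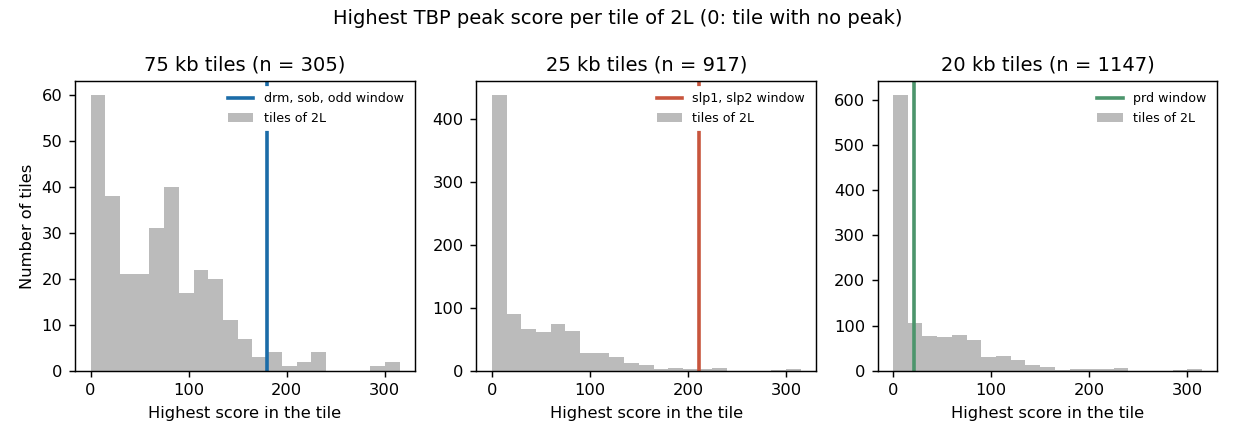
Number of tiles of 2L (vertical axis) by the highest deposited TBP peak score in the tile (horizontal axis, 0 where the tile has no peak), for tiles of 75 kb, 25 kb and 20 kb, with a coloured line at the highest score of the window of that length. The lines for the drm, sob, odd window (180.28) and the slp1, slp2 window (211.52) fall in the right tail, and the line for the prd window (21.16) falls near the left end.

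Coverage also differed between the windows. Peaks covered 3.3% of the drm, sob and odd window, 14.6% of the slp window and 5.4% of the prd window, against 5.97% of the rest of 2L. The last share includes the run of wide peaks and was not computed again without it. Peak density was 4 per 100 kb around drm, sob and odd, 20 per 100 kb around slp1 and slp2 and 15 per 100 kb around prd. As drawn, only the slp window exceeded the rest of the arm in both. The prd window combined a higher density with a slightly lower coverage. With the windows widened by 10 kb on both sides, coverage was 12.1% for prd and 9.18% for slp1 and slp2. For drm, sob and odd it was 5.1%. The widened prd window took in the 2457 bp peak just past its edge. The contrast in coverage between the slp and prd windows thus depends on the window edges.

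The gaps between neighbouring peaks also differed between the windows, whose lengths of 75, 25 and 20 kb limit how long a gap inside them can be. In the drm, sob and odd window the gaps were 40174 and 24755 bp, which ranked 138 and 221 of 1348 gaps on 2L, where 20.4% of gaps exceeded 20 kb. The slp window had gaps of 667, 4642, 2583 and 480 bp, with 2 of the 4 below 1 kb, against 25.6% of all gaps on the arm. The prd window had gaps of 9079 and 7697 bp. The median over all gaps of 2L was 4695.5 bp, so the gaps of the slp window were all below it and the gaps of the other windows were all above it. After the last slp peak came 25345 bp with no peak.

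**Figure D4:**
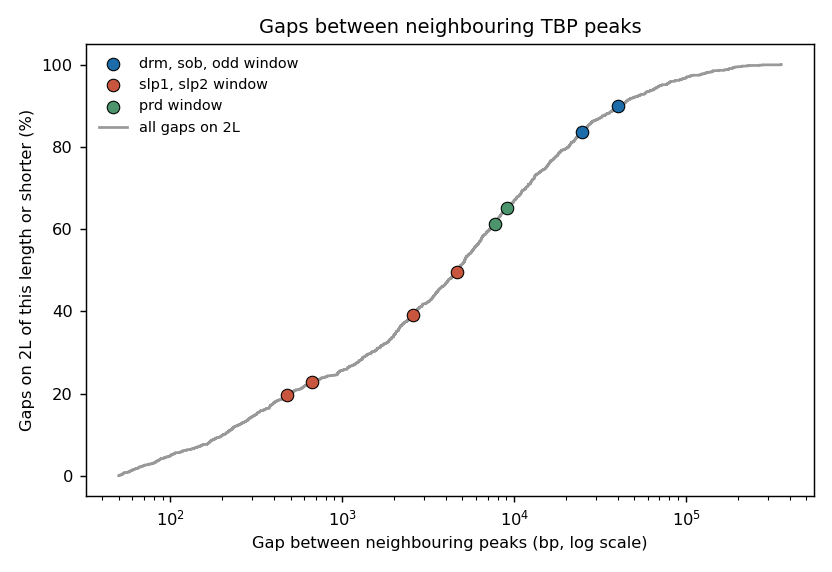
Share of the 1348 gaps between neighbouring TBP peaks on 2L that are of a given length or shorter (vertical axis, %) against gap length in bp on a log scale, with the gaps inside each window marked. The 4 gaps of the slp1, slp2 window (480 to 4642 bp) lie below the median gap, and those of the prd window (7697 and 9079 bp) and the drm, sob, odd window (24755 and 40174 bp) lie above it.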

How the data were processed

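The authors deposited 1 peak list in GFF version 3 for 2 TBP ChIP and 2 input libraries. Its coordinates refer to FlyBase release 5 and its source field to the peak caller MACS, per the file headers. MACS2, BWA, the build BDGP5 and CASAVA (1.7.0.3 and 1.7.0.2) appear in the submitters' processing notes, with no roles. Threshold, duplicate handling and pooling of replicates were not given in the sources used here, so how they shaped weak or split peaks is unknown. The deposited score has no stated scale.

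Members were the peaks with at least 1 bp in a window. The windows, members and measures were chosen with earlier results of these data known. Every member peak is named, with the 3 nearest peaks on each side of a window and the score neighbours of its strongest peak available for naming. Rank is 1 plus the number of 2L peaks with a higher value. Tiles were laid from the first peak of 2L, and the 50 peaks nearest in score were taken by absolute difference. Tiles, and the list without the run of wide peaks (at least 3000 bp, starts at most 15000 bp apart) in tiles and score neighbours, were added after the data were seen. Replicates could not be compared and no test was made. Counting functions were checked on simulated data. The planned searches of promoter and protein sequence were not run, as no sequence was used. Calculations used pandas 2.3.3, scipy 1.17.1 and numpy 2.4.6 under Python 3.11.15, and plots used matplotlib 3.10.9.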

Additional observations from a re-analysis of the deposited data

How the results depend on the processing

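Of 49 alternatives, 36 stayed within 1.5 times the reported count, median or covered share, or within the exact binomial 95% interval of the reported share of peaks or tiles, and 13 moved. Some of the 36 could not move. All peaks of the drm, sob and odd window were already above the 2L median score. No gap inside or beside that window or the prd window was below 1 kb, so merging could not change their counts. Peaks and tiles are not independent, so the intervals serve only as a yardstick. Widening the windows by 10 kb on both sides gave 5 peaks for drm, sob and odd, and 5 for prd, where the highest score became 93.57. Keeping only peaks above the 2L median score left 2 peaks at slp1 and slp2 and 0 at prd, with 0% of the prd window covered, and raised the median of the members to 86.15 in score and 1464 bp in width, as that selection requires. Merging peaks within 1 kb left 3 regions at slp1 and slp2 and put the median score of the members at 44.34. It put their median width at 779 bp, which was counted as unchanged. The share of peaks scoring above the strongest member was 2.45% on 2L for drm, sob and odd, 1.14% over the 6 arms and 0.83% on 2L without the run of wide peaks. For slp1 and slp2 it was 1.11%, 0.507% and 0.528%. Requiring the midpoint or the whole peak inside the window left 2 peaks for drm, sob and odd and changed no other count. That drop lies exactly on the limit of 1.5 times and was counted as unchanged. The peak lost was the widest member, at 1614 bp, which also bounds the gap of 40174 bp. Between the 2 peaks that remain, the wider one scored higher. No paired analysis was possible because the list holds no values per library, and no replicate could be left out for the same reason. The alternatives for promoter motifs were not run. Unknown depth limits every statement on weak peaks, and the score has no known scale.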

Other observations

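Between the drm, sob and odd window and the slp window, 2L 3615001 to 3819999 held 18 peaks, or 8.78 per 100 kb, with a median score of 19.76 and a covered share of 6.58%. In gene order bowl, the odd relative that acts with drm in gut patterning, comes between odd and slp1, with 32 protein-coding genes between odd and bowl and 4 between bowl and slp1. Its position on release 5 was not used, so whether it lies inside this interval was not determined. The strongest of the 18, at 3784693 to 3786590, scored 105.62 (rank 109 on 2L) and was 1898 bp wide, and it alone reached the 90th percentile of the arm. None of the 18 scored as high as the strongest peak of either window. No peak there was assigned to bowl.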
